A study of Mus musculus with 4 samples.

Results

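The genes described here were the type I interferon-stimulated genes, the genes that cells switch on when they sense interferon alpha or beta. A list of 37 such genes was taken, and every gene on it that was present in the deposited gene table was a member. Of the 37, 36 were measured and Mx2 was not in the table, so the 36 members were set against 31053 genes, of which 20506 had at least 1 UMI (unique molecular identifier, the count of 1 captured RNA molecule). Within the 36, 17 genes with a low resting level and a strong response to interferon were also summed as the inducible members, namely Ifit1, Ifit2, Ifit3, Ifit3b, Isg15, Rsad2, Cmpk2, Usp18, Oasl1, Oasl2, Mx1, Irf7, Rtp4, Ifi44, Oas1a, Oas2 and Oas3.

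Type I interferons bind a receptor made of Ifnar1 and Ifnar2, and the kinases Jak1 and Tyk2 then activate transcription factors, among them Stat2. With Irf9 these form a complex that enters the nucleus and binds the interferon-stimulated response element, a repeat of GAAA blocks in the promoters of target genes. The products block virus entry, degrade or bind viral RNA, sense foreign nucleic acid and feed back on the pathway, and in damaged tissue the same genes can respond to nucleic acid released from dying cells.

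Cells came from the carotid arteries of male C57BL/6 mice, whose age was given as 11 weeks at the wire injury. The left carotid was injured with a wire, which strips the endothelium and stretches the wall. Arteries were taken before injury (day 0) and at day 3, day 7 and day 14 after it, arteries of several mice went into each pool, thrombosed ones were left out, and the tissue was digested with enzymes, cleared of dead cells and run through a droplet 3′ kit. Each time point gave 1 library, so day and library cannot be told apart, and no test over replicates was possible. Levels are given as CPM, a gene's share of all UMIs summed over the cells of a class, on the scale on which 10000 CPM is 1% of the UMIs, with exact 95% Poisson intervals, and ratios carry exact 95% intervals that condition on the total of both counts. These intervals cover counting error only.

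Promoter sequences are shown for 5 of the members whose values recur below, because the element through which interferon acts can be read in them. RefSeq promoters of assembly GRCm38.p6, from 250 bases before to 50 bases after each start, were at hand for 28 of the 36 members. The letters GAAANNGAAA, the core of the response element, were searched on both strands (TTTCNNTTTC on the other) and matches could overlap. At least 1 match was found in 17 of 28 members (60.7%), against 1079 of 27025 genes with a promoter entry (3.99%). The 5 stretches below cover the 160 bases before the start, 5′ to 3′ on the transcribed strand, with the matched letters in capitals.
Isg15 (chr4:156200819-156200978, minus strand): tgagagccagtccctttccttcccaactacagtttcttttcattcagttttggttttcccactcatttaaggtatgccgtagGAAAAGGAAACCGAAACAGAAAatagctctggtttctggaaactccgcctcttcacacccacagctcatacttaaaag
Ifit1 (chr19:34640729-34640888, plus strand): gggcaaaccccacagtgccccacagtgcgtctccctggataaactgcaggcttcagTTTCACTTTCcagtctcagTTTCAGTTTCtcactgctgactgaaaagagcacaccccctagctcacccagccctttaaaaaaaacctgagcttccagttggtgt
Ifit3 (chr19:34583369-34583528, plus strand): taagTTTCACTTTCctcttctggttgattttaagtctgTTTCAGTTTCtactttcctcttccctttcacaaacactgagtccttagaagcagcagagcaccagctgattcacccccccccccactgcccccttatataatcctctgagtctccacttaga
Rsad2 (chr12:26456453-26456612, minus strand): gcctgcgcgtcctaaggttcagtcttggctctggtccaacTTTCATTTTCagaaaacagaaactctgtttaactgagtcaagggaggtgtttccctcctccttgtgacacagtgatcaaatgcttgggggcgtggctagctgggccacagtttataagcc
Oas3 (chr5:120777660-120777819, minus strand): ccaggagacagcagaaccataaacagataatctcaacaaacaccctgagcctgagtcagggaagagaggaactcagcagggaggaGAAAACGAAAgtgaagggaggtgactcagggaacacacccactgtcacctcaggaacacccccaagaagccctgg

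In Isg15, 3 overlapping matches began 78, 72 and 66 bases before the start and formed 1 run of capitals. Ifit1 held 2 separate matches, 104 and 85 bases before its start, and Ifit3 held 2 as well, at 156 and 122. Rsad2 and Oas3 held 1 each, at 120 and 75. Of the 17 members with a match, 8 had at least 2 within 1 window and Trim30a had 1 in each of its 2 windows, and 13 had a match before the start site rather than only after it. The 11 members with an entry and no match in the window were Ifit2, Oasl1, Oasl2, Irf7, Irf9, Cmpk2, Isg20, Ifi44, Ifi35, Xaf1 and Phf11d. A match was held by 7 of 13 inducible members with an entry and by 10 of 15 others. It describes letters, not a bound site.

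The 4 libraries held 333, 1689, 3001 and 1138 barcodes at day 0, day 3, day 7 and day 14, with 2672722, 18989081, 27973418 and 13329564 UMIs. Libraries shared barcodes: 152 occurred in both day 0 and day 3 and 64 in both day 7 and day 14, and in nearly all of these 1 library held far more UMIs than the other, with median ratios of 21.5 (104 barcodes deeper at day 0), 109 (48 deeper at day 3) and 89.6 (62 deeper at day 7). The shallower one was removed where the ratio was at least 8 (214 barcodes), and results that could rest on the copies are given with them kept. After filters on gene number, mitochondrial share and predicted doublets, 5406 of 6161 barcodes remained, and clusters were named by marker genes as monocyte/macrophage-like (3, 471, 833 and 170 cells by day), dendritic-like (0, 180, 370, 45), neutrophil-like (0, 233, 119, 0), fibroblast-like (230, 111, 169, 490), smooth muscle-like (11, 97, 74, 74), endothelial-like (6, 40, 57, 18), T cell-like (19, 65, 369, 94), NK cell-like (0, 58, 158, 34) and B cell-like (0, 10, 13, 21). B cell-like cells had enough cells on 1 day only, with 93 UMIs of members at day 14, and were not described further. The 764 cells left unnamed (14.13%) fell mostly on day 7 (531 cells). The clusters were rebuilt from the counts without the interferon-related genes, so that the members did not shape the clusters. Naming ranked the leading genes of each cluster over all genes, members included. The members could therefore affect which clusters were named and which were left out of the classes. Differences from the study's own cell types may come from the rebuilding. Sums over under 20 cells were not compared between days.

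The members were most abundant in myeloid cells and scarce in smooth muscle. Their summed level in monocyte/macrophage-like cells was 8427 CPM at day 3, 5997 at day 7 and 4963 at day 14. Dendritic-like cells carried 6658, 5999 and 3601 CPM on the same days, and neutrophil-like cells 5392 and 5309 CPM at day 3 and day 7. In fibroblast-like cells the sum was 2334 CPM before injury, 5372 at day 3, 3337 at day 7 and 2518 at day 14. Smooth muscle-like cells held 798, 1376 and 685 CPM, NK cell-like cells 797, 1074 and 694, and T cell-like cells 1409, 1836 and 1290 at day 3, day 7 and day 14. Endothelial-like cells lay between, at 3059 and 3981 CPM at day 3 and day 7. The myeloid classes and the fibroblast-like cells thus stood above all lymphoid and smooth muscle-like cells on each day compared after injury. In the cell that was the median of its class, members made up 0.647% of UMIs in monocyte/macrophage-like cells at day 3 and 0.053% in smooth muscle-like cells at day 3.

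The inducible members gave another order. Their sum was highest in neutrophil-like cells, at 2383 CPM at day 3 and 2758 at day 7, above the monocyte/macrophage-like sum of 1392 and 1081. The cell that was the median of its class gave another picture at day 3, with 0.0472% of UMIs in neutrophil-like, 0.0673% in monocyte/macrophage-like and 0.0485% in fibroblast-like cells, and at day 7 the first 2 of these were at 0.0450% and 0.0404%. Dendritic-like cells had 875 and 966 CPM and fibroblast-like cells 1098 and 422 CPM on the same days, so that these 2 classes changed places. The dendritic-like ratio of day 7 over day 3 was 1.10, but 0.70 with the interferon genes kept in the clustering. T cell-like cells had 244 and 424 CPM, NK cell-like cells 149 and 277, and smooth muscle-like cells 112 and 113. A few cells carried much of some of these sums. Without the 5 cells that held most inducible UMIs, the neutrophil-like sum was 1704 CPM at day 3 and 1432 at day 7, that of fibroblast-like cells at day 3 was 758, and that of smooth muscle-like cells at day 3 was 25.2.

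**Figure D1:**
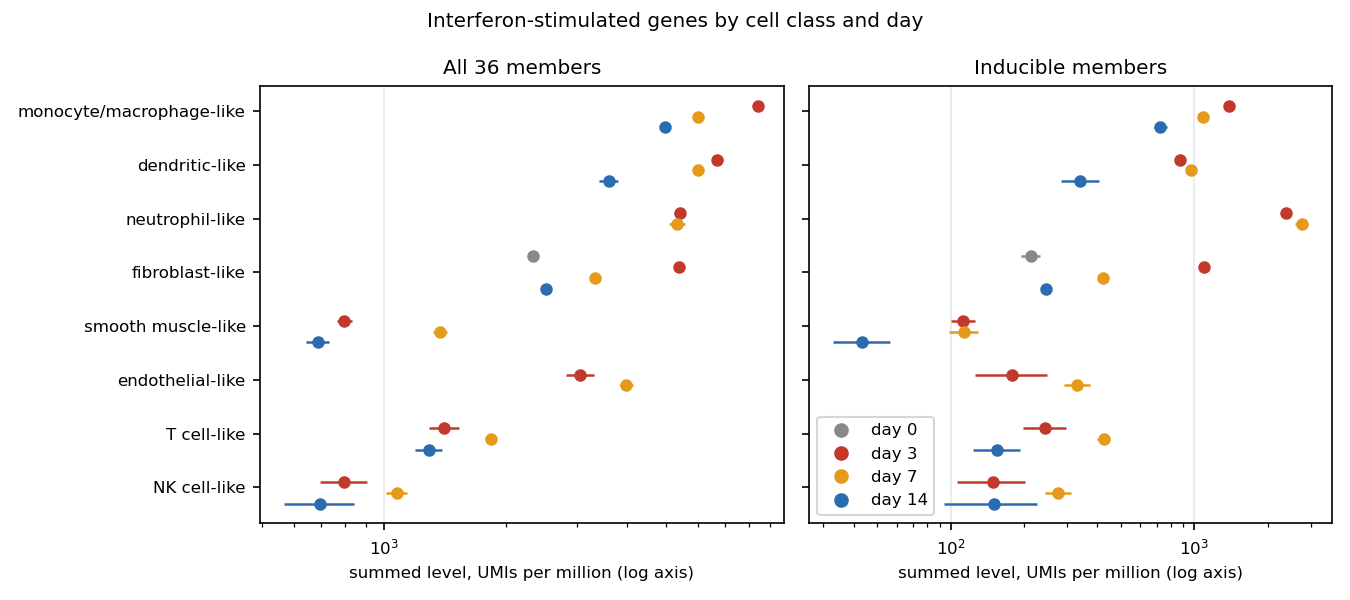
Summed level of all 36 members and of the 17 inducible members in CPM for each cell class and day, on a log axis, with exact 95% Poisson intervals over UMIs (1 library per day, classes with at least 20 cells). The sum of all members was highest in monocyte/macrophage-like cells at day 3 (8427 CPM), whereas the inducible sum was highest in neutrophil-like cells (2758 CPM at day 7).

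Gene by gene within the day 3 library, neutrophil-like cells had the highest level of 17 of the 36 members, monocyte/macrophage-like cells of 11, fibroblast-like cells of 4, dendritic-like cells of 3 and endothelial-like cells of 1, and the interval of the top class lay apart from that of the next for 9 of the 17. At day 7 neutrophil-like cells led for 15 members (12 apart), monocyte/macrophage-like and dendritic-like cells for 9 each and endothelial-like cells for 3. At day 14, with no neutrophil-like cells, monocyte/macrophage-like cells led for 23 (7 apart) and dendritic-like cells for 7. The same counts over all genes are not given, so these describe the members alone and do not set them apart from other genes. The levels in this and the next 2 paragraphs pool the days of each class unless a day is given. Neutrophil-like cells came from day 3 and day 7 only, so their pooled level is not of the same days as that of other classes. The cells of the other classes also fell unevenly on the days, so the order of pooled levels can differ from that within a day. The IFIT proteins bind viral RNA whose cap marks it as foreign. Ifit1 stood at 228 CPM in neutrophil-like and 81.5 CPM in dendritic-like cells, the next class, and Ifit3 and its near copy Ifit3b at 122 and 77.1 CPM in neutrophil-like cells. Reads of Ifit3 and Ifit3b, as of Oas1a and Slfn8 with their close paralogs, may have been split or dropped in counting, so their separate levels are uncertain. Isg15, a ubiquitin-like protein that is attached to other proteins and removed from them by Usp18, was highest in fibroblast-like cells at day 3, at 486 CPM against 368 in neutrophil-like cells, and in neutrophil-like cells at day 7, at 557 CPM against 207 in dendritic-like cells.

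The OAS enzymes make the second messenger that activates the RNA-degrading enzyme RNase L. Oas3 stood at 125 CPM in neutrophil-like cells and had no UMI in smooth muscle-like cells, and the related Oasl2 at 309 CPM in neutrophil-like cells. Mx1, a dynamin-like GTPase that blocks virus replication and whose allele is defective in C57BL/6 mice, was highest in dendritic-like cells at 75.7 CPM. Among the sensors, Zbp1, which binds left-handed nucleic acid and can start necroptosis, was highest in monocyte/macrophage-like cells at 86.0 CPM, and Ifi205, of the DNA-binding HIN-200 family, in dendritic-like cells at 131 CPM. Irf7, the transcription factor that amplifies interferon production, was highest in monocyte/macrophage-like cells (179 CPM), with neutrophil-like cells next (129 CPM).

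The abundant membrane proteins were placed differently. Ifitm3, which hinders virus fusion in endosomes, stood at 2659 CPM in dendritic-like, 2338 in monocyte/macrophage-like and 40.4 in NK cell-like cells. Bst2 (tetherin), which holds budding virus at the cell surface, was highest in endothelial-like cells at 733 CPM and lowest in neutrophil-like cells at 45.3 CPM. Ifi27l2a, a small protein of mitochondria and the nuclear membrane, stood at 1486 CPM in monocyte/macrophage-like cells and 17.3 in NK cell-like cells. Ifitm3, Ifi27l2a and Bst2 gave 99059, 40014 and 19120 UMIs, and they were 64.9% of the members' UMIs in monocyte/macrophage-like cells and 67.2% in dendritic-like cells at day 3. In neutrophil-like cells at day 3 the leading members were instead Ifitm3, Trim30a and Rsad2, at 37.0%, and in NK cell-like cells Trim30a, Bst2 and Slfn8, at 35.0%. The inducible sum left Ifitm3, Ifi27l2a and Bst2 out. Slfn5, a Schlafen protein, stood at 278 CPM in dendritic-like and 245 in monocyte/macrophage-like cells. On pooled levels, Phf11d was the 1 member highest in fibroblast-like cells, at 58.8 CPM, level with endothelial-like cells at 58.1. In monocyte/macrophage-like cells of day 3 alone it stood at 80.4 CPM.

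**Figure D2:**
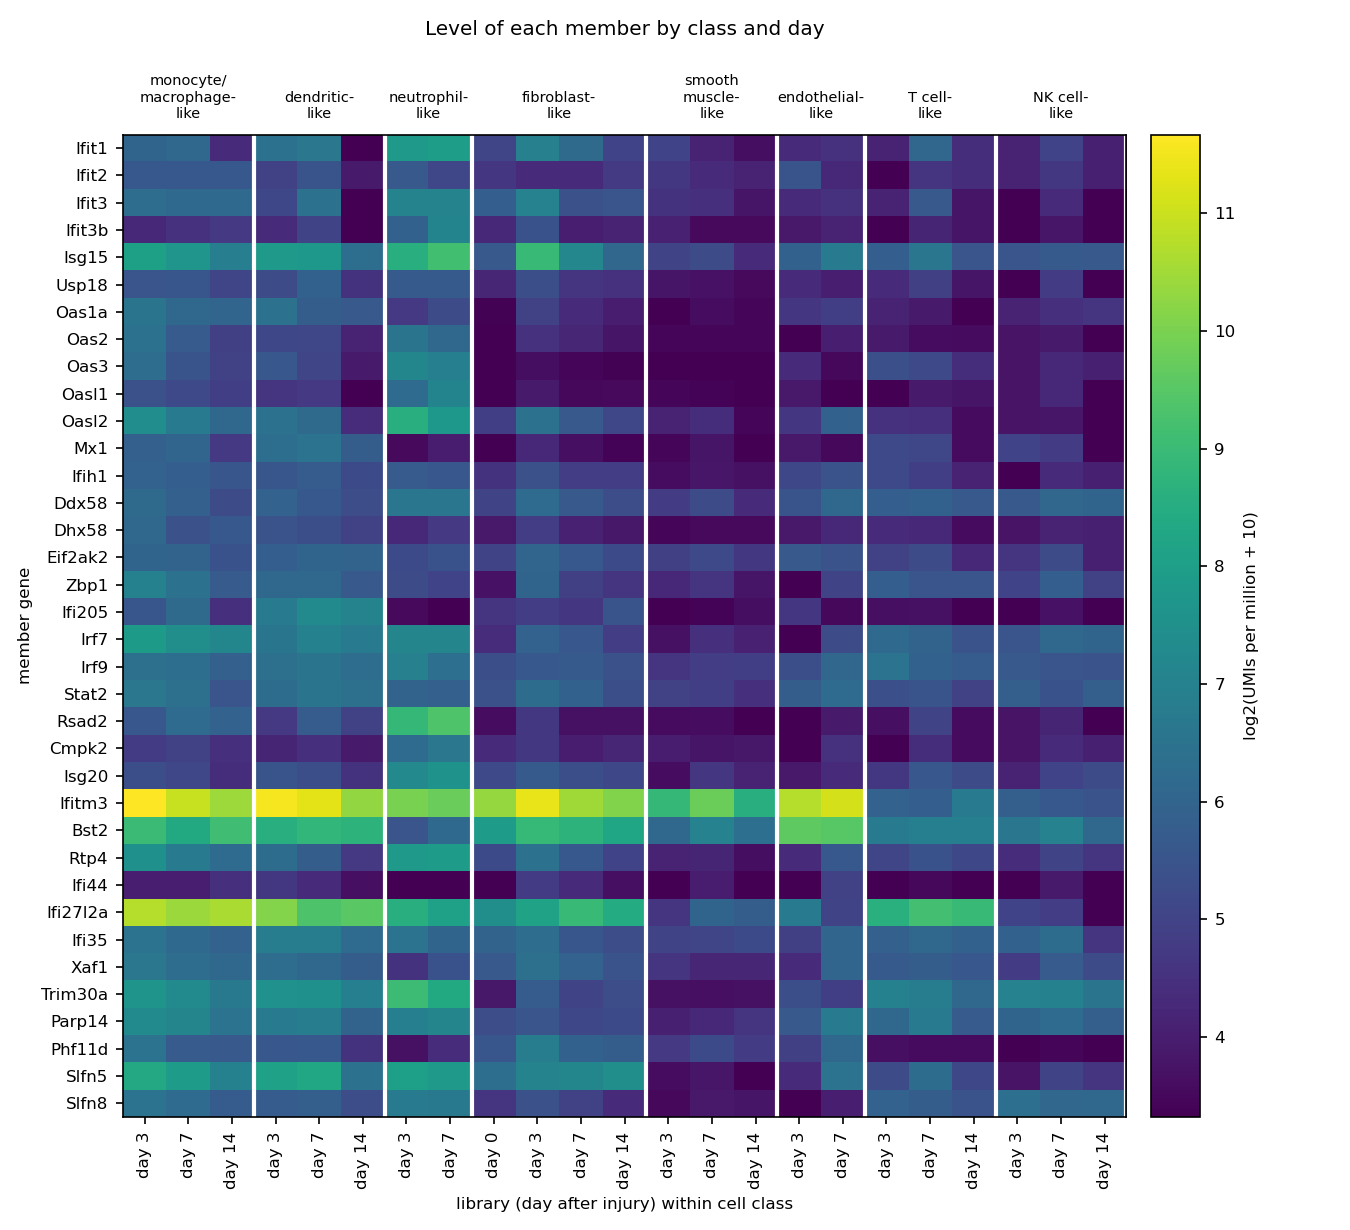
Heat map of each member's level, as log2(CPM + 10), by cell class and day, with members grouped by role. Neutrophil-like cells held the top level of 17 members at day 3 and of 15 at day 7, while Mx1, Ifi205 and Bst2 were low there, and smooth muscle-like cells were dark (low) for most members other than Ifitm3 and Bst2. The same counts over all genes are not given. Columns with under 20 cells are not drawn.

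Neutrophil-like and monocyte/macrophage-like cells of the same library could be compared directly, since they shared the arteries and the day. At day 3, 7 of 36 measured members were at least 2-fold higher in neutrophil-like cells, on log2(CPM + 10), and 10 were at least 2-fold lower, where 10.2% of all genes tested (those with at least 20 UMIs in both sums together) were higher and 21.0% lower. At day 7, 11 members were higher and 7 lower, where 8.10% of all genes were higher and 12.2% lower. The median log2 ratio of the members was 0.03 and -0.05, and that of all genes tested was -0.35 and -0.16. Higher on both days were Ifit1, Ifit3b, Oasl2, Rsad2, Cmpk2, Isg20 and Trim30a, and lower on both days were Mx1, Zbp1, Ifi205, Ifitm3, Bst2, Ifi27l2a and Phf11d. At day 3 the share of members that were lower lay near that of all genes. A member can reach the minimum of 20 UMIs through the higher sum alone, in that it would not have reached it with both sums at the lower CPM, and it is then bound to differ. This held for Mx1, Ifi205 and Phf11d among those lower at day 3 and for Ifi205 at day 7.

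Rsad2 (viperin), which makes a chain-terminating nucleotide that stops viral RNA synthesis, had the largest ratio of the members that were higher. Its level was 464 CPM in neutrophil-like and 38.3 CPM in monocyte/macrophage-like cells at day 3, a ratio of 12.1 (10.1 to 14.6), and 647 against 65.7 CPM at day 7, a ratio of 9.85 (8.43 to 11.5). Cmpk2, the neighbouring nucleotide kinase, was 3.78-fold and 4.37-fold higher at day 3 and day 7. Ifit1 was 4.01-fold and 4.15-fold higher, and Isg20, an RNA exonuclease, 4.73-fold and 7.47-fold. Trim30a, a ubiquitin ligase that limits inflammatory signalling, was 2.72-fold and 2.21-fold higher. Isg15 was 1.44-fold higher at day 3, short of the 2-fold mark, and 2.83-fold at day 7.

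The members that were lower in neutrophil-like cells were nearly missing there in several cases. Bst2 stood at 35.8 CPM against 501 in monocyte/macrophage-like cells at day 3 (ratio 0.0714) and at 62.7 against 326 at day 7 (ratio 0.192). Mx1 gave 1 and 2 UMIs in all neutrophil-like cells of day 3 and day 7, against 237 and 494 in monocyte/macrophage-like cells, and Ifi205 gave 1 and 0 UMIs against 179 and 564. Ifi44 had no UMI in neutrophil-like cells on either day, but its monocyte/macrophage-like level was 6.28 and 6.39 CPM, and a lower level was not detectable at day 7 at this depth (the upper bound of the ratio was 1.63). Ifitm3 was at 0.312 and 0.430 of the monocyte/macrophage-like level and Ifi27l2a at 0.217 and 0.198. The summed markers of monocytes and macrophages stood at 1105 and 1492 CPM in neutrophil-like cells, against 25433 and 23559 CPM in monocyte/macrophage-like cells, and their part in these ratios was not tested. Neutrophil-like cells were shallow, with a median of 2859 UMIs at day 3 against 8506 in monocyte/macrophage-like cells.

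Fibroblast-like cells were the only class with enough cells before injury to compare with the injured artery. At day 3, with no minimum on counts, 35 of the 36 members were higher than at day 0, and Ifit2 was the exception, where 47.8% of all genes with at least 1 UMI were higher at all. Among the 35, 5 had 0 UMIs at day 0 and could not have been lower. Of the 35 that reached the minimum, 19 were at least 2-fold higher and 0 at least 2-fold lower, where 3.83% of all genes tested were higher and 4.23% lower. The median log2 ratio was 1.01, with medians of 0.69 and 1.26 for the members' interval bounds, against -0.05 over all genes tested. The summed inducible level was 213 CPM at day 0 and 1098 CPM at day 3, a ratio of 5.17 (4.70 to 5.69), and the sum of all members was 2.30-fold higher (2.23 to 2.37). Of the 35, 6 (Oas1a, Oas2, Oasl1, Mx1, Rsad2 and Ifi44) reached the minimum through day 3 alone, and without them 15 of 29 were at least 2-fold higher. With the repeated barcodes kept, 17 members were at least 2-fold higher and the inducible ratio was 4.99. At a finer clustering (resolution 2), 9 members were at least 2-fold higher and the median was 0.65. The shares of all genes in these settings, and without genes that reached the minimum through 1 sum alone, are not given.

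Isg15 showed the largest difference on log2(CPM + 10). It stood at 40.6 CPM before injury, 486 at day 3, 135 at day 7 and 57.9 at day 14, and the day 3 level was 12.0-fold that of day 0 (9.70 to 14.9). Zbp1 stood at 3.16, 54.9, 20.1 and 13.8 CPM (17.4-fold at day 3, 8.32 to 43.7) and Trim30a at 4.51, 44.2, 22.7 and 29.5 CPM (9.79-fold, 5.22 to 20.7). All 3 were highest at day 3 and all 3 were above their day 0 level at day 14.

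In the IFIT family, 3 of 4 members were at least 2-fold higher at day 3. Ifit1 stood at 23.5, 113, 63.9 and 22.2 CPM over the 4 days (4.83-fold at day 3, 3.63 to 6.55) and Ifit3 at 46.5, 120, 32.1 and 36.3 CPM (2.59-fold). Ifit2, which promotes cell death when abundant, stood at 14.9, 10.1, 10.0 and 16.6 CPM and was the 1 member lower at day 3 (ratio 0.678, 0.426 to 1.09, an interval that holds 1). Usp18, the enzyme that removes Isg15 and dampens the receptor, stood at 8.57, 30.3, 14.7 and 12.9 CPM and was 3.53-fold higher at day 3.

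In the OAS family Oas1a, Oas2 and Oasl1 reached the minimum through day 3 alone, so that of the 4 measured members only Oasl2 was free to lie on either side. Oas1a gave 1 UMI at day 0 (0.451 CPM) and stood at 20.4 CPM at day 3, a ratio of 45.2 with a wide interval (7.93 to 1804). Oas2 had 0 UMIs at day 0 and 12.8 CPM at day 3, at least 9.48-fold higher when day 0 is set to 3 UMIs in its sum, that is 1.35 CPM. Oasl2 stood at 19.0, 77.2, 40.8 and 24.2 CPM (4.07-fold at day 3). Oasl1, Mx1 and Ifi44 also had 0 UMIs at day 0 and were at least 3.73-fold, 6.68-fold and 12.9-fold higher at day 3 on the same floor, although Oasl1 and Mx1, at 5.05 and 9.04 CPM, stayed under the 2-fold mark on log2(CPM + 10). Oas3 had too few UMIs to be counted.

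The transcription factors of the pathway differed. Irf7 stood at 10.8, 51.3, 38.4 and 18.6 CPM (4.74-fold at day 3 and 3.54-fold at day 7), whereas Stat2 was 2.07-fold and Irf9 1.32-fold higher at day 3 and neither reached 2-fold on log2(CPM + 10). Rsad2, the member furthest above in neutrophil-like cells, stood at 2.26, 15.6, 3.01 and 2.94 CPM (6.90-fold at day 3). The 3 membrane proteins were all at least 2-fold higher, with Ifitm3 at 1309, 2659, 1418 and 1090 CPM, Bst2 at 227, 468, 410 and 290 CPM and Rtp4, a receptor chaperone that binds viral replication enzymes, at 26.6, 78.2, 39.0 and 21.9 CPM. The RNA sensors Ddx58 (RIG-I) and Eif2ak2 (PKR) were 2.95-fold and 2.46-fold higher.

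At day 7, 6 of 33 measured members were at least 2-fold higher than at day 0 and 0 lower, where 3.82% of all genes were higher and 3.28% lower, and the median log2 ratio was 0.41 against -0.02 over all genes. These 6 were Isg15 (3.33-fold), Ifit1 (2.72-fold), Zbp1 (6.36-fold), Irf7, Trim30a (5.03-fold) and Ifi27l2a, which stood at 166, 272, 486 and 338 CPM over the 4 days and so peaked at day 7 rather than day 3. Between 3 members (without the Saa3- and Prg4-led cluster) and 13 (doublet scores not used) were at least 2-fold higher at day 7 in the alternatives run. The shares of all genes in those alternatives are not given. At day 14, 2 of 33 were higher, Trim30a (6.53-fold) and Slfn5 (2.35-fold), and 0 lower, where 2.34% of all genes were higher and 1.58% lower, and the median was 0.14 against -0.01. Slfn5 stood at 70.4, 122, 131 and 166 CPM and was highest on the last day. With 1 CPM added in place of 10, 8 members were at least 2-fold higher at day 14, and the share of all genes on that scale is not given. The summed inducible level was 1.99-fold (1.80 to 2.20) that of day 0 at day 7 and 1.15-fold (1.04 to 1.28) at day 14.

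**Figure D3:**
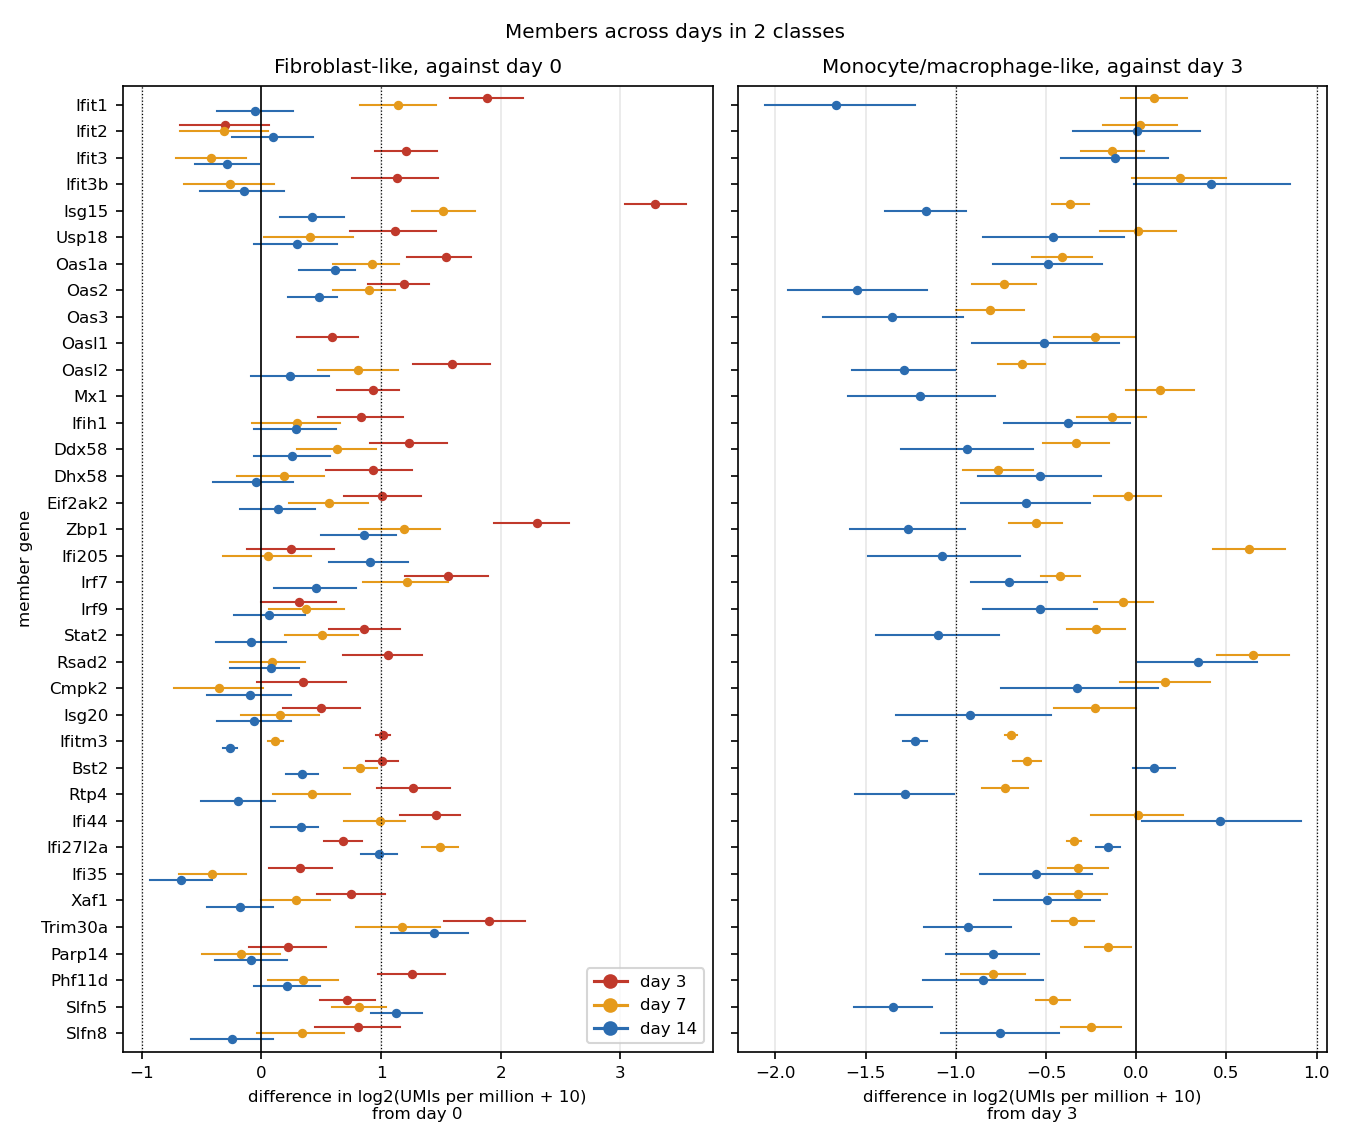
Each measured member's difference in log2(CPM + 10) between days, in fibroblast-like cells against day 0 and in monocyte/macrophage-like cells against day 3, with intervals that cover counting error. In fibroblast-like cells at day 3, 19 of 35 members lie at or above 1 (2-fold); in monocyte/macrophage-like cells at day 14, 12 of 36 lie at or below -1.

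The fibroblast-like clusters were not mixed alike on the 4 days. At day 0, 88.3% of the cells belonged to a cluster led by Rbp4 and Fmo2, at day 3 37.8% to one led by Saa3 and Prg4 and 35.1% to one led by Eln and Cpxm2, and at day 7 and day 14 60.4% and 46.1% to the latter. Within the Rbp4- and Fmo2-led cluster the inducible sum was 190 CPM at day 0 (203 cells), 1401 CPM on the 19 cells of day 3, 231 on the 14 cells of day 7 and 298 at day 14 (80 cells, 1.56-fold day 0, 1.31 to 1.87). In the cluster led by Igfbp5 and C1qtnf3, which held 37.3% of the cells of day 14, it was 277 CPM at day 0 (26 cells) and 303 at day 14 (183 cells), a ratio of 1.09 whose interval holds 1 (0.905 to 1.33). In the Eln- and Cpxm2-led cluster it was 1852, 285 and 188 CPM at day 3, day 7 and day 14. The Saa3- and Prg4-led cluster had 872 CPM at day 3 and 708 at day 7 (ratio 0.812, 0.749 to 0.880). Without that cluster, 22 members were at least 2-fold higher at day 3 and 3 at day 7, and the shares of all genes without it are not given. No cluster had at least 20 cells on both day 0 and day 3, so the day 3 difference was not compared within a cluster.

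The markers of monocytes and macrophages summed to 119, 430, 292 and 315 CPM in fibroblast-like cells over the 4 days, against 25433 CPM in monocyte/macrophage-like cells at day 3, and 8 of 15 of them were at 0 at day 0, among them Adgre1, C1qb and Cd68. Their part in the members' ratios was not tested. Fibroblast-like cells at day 3 were deeper than at day 0, with a median of 38871 against 8415 UMIs.

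In monocyte/macrophage-like cells the members were compared with day 3, the first day with enough cells. At day 7, 27 of 36 members were lower at all and 9 higher, where 61.8% and 38.2% of all genes tested were, and 0 members were at least 2-fold lower and 0 at least 2-fold higher, where 0.914% of all genes were lower and 1.40% higher. The median log2 ratio was -0.29 against -0.07 over all genes. At day 14, 12 of 36 members were at least 2-fold lower and 0 higher, where 2.60% of all genes were lower and 2.39% higher, and the median was -0.73 against -0.09. The inducible sum was 0.777 of the day 3 level on day 7 (0.753 to 0.801) and 0.521 of it on day 14 (0.488 to 0.556). At day 14, 1 cell held 177 inducible UMIs, 16.9% of the class sum, and without the top 5 cells the sum was 494 CPM rather than 725.

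The 12 members lower at day 14 were Ifit1, Isg15, Oas2, Oas3, Oasl2, Mx1, Zbp1, Ifi205, Stat2, Ifitm3, Rtp4 and Slfn5. Isg15 stood at 256, 197 and 109 CPM at day 3, day 7 and day 14. Ifit1 stood at 54.6, 59.2 and 10.4 CPM, level between the first 2 days and at 0.190 of day 3 (0.105 to 0.320) at day 14. Both were lowest on the last day, but Isg15 was already lower at day 7 and Ifit1 was not. Oas2 stood at 78.1, 42.9 and 20.1 CPM, Oas3 at 68.7, 34.8 and 20.8, and Zbp1 at 117, 76.4 and 43.0, each in the same order. Ifitm3 stood at 3251, 2005 and 1382 CPM. Slfn5 stood at 317, 228 and 118 CPM, the reverse of its order in fibroblast-like cells.

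Some members did not follow. Rsad2 stood at 38.3, 65.7 and 51.3 CPM (1.71-fold at day 7, 1.45 to 2.03) and Ifi205 at 37.5, 63.2 and 12.5 CPM (1.69-fold at day 7 and 0.333 of day 3 at day 14). Bst2 was at 0.651 of day 3 at day 7 and 1.07 at day 14, with 501, 326 and 537 CPM. Ifit3 stood at 68.5, 61.6 and 62.4 CPM, nearly level over the 3 days. Ifi27l2a stood at 1719, 1351 and 1540 CPM and was lowest at day 7. Mx1 stood at 49.6, 55.4 and 15.9 CPM.

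The clusters within the class differed. At day 3, 62.8% of monocyte/macrophage-like cells were in a cluster led by Pf4 and Ccl6, at day 7 51.5% in one led by Plac8 and Lyz2, genes that monocytes express, and at day 14 51.8% in one led by Ms4a7 and Apoe, genes that macrophages express. In the Plac8- and Lyz2-led cluster the inducible sum was 652 CPM at day 3 (71 cells) and 1234 at day 7 (429 cells), a ratio of 1.89 (1.72 to 2.09). In the Pf4- and Ccl6-led cluster it was 1307 and 839 CPM (0.642, 0.589 to 0.699). In the Ms4a7- and Apoe-led cluster it was 3626 CPM on 33 cells at day 3, 995 at day 7 and 788 at day 14 (0.274, 0.258 to 0.293, and 0.217). The inducible sum was therefore higher at day 7 in the first of these clusters and lower in the other two; the difference between clusters was not tested. Without the Ms4a7- and Apoe-led cluster the members' median at day 7 was -0.06 in place of -0.29.

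**Figure D4:**
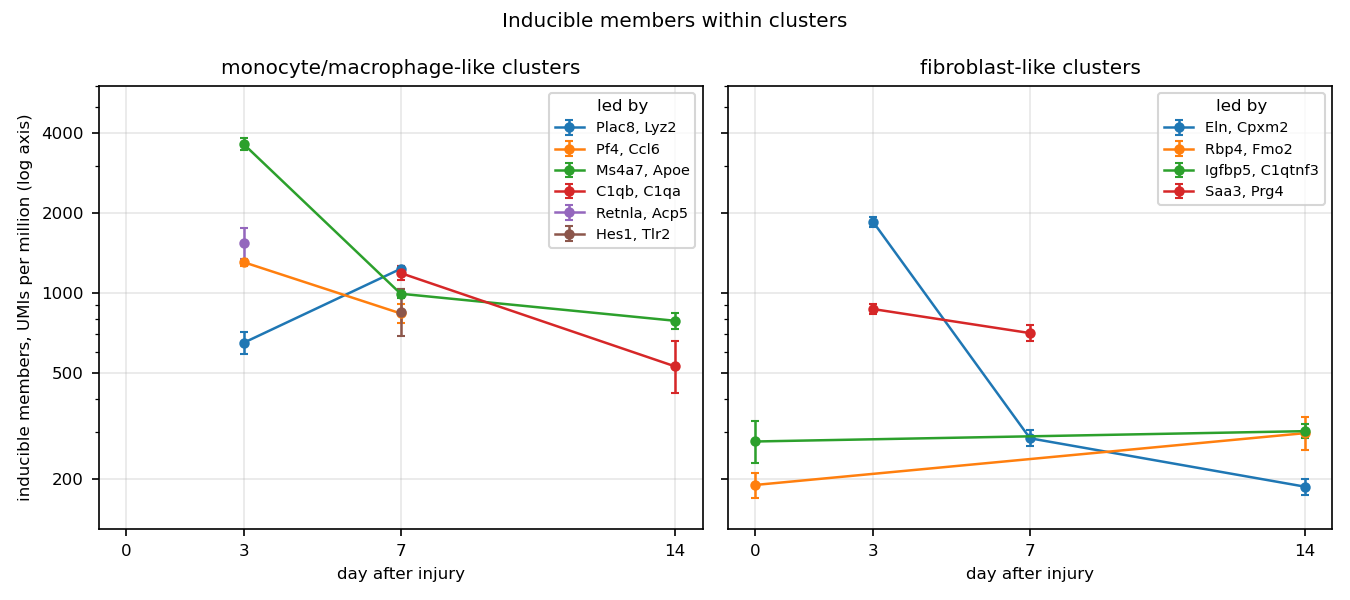
Inducible sum in CPM by day within the clusters that make up the monocyte/macrophage-like and fibroblast-like classes, on a log axis, with exact 95% Poisson intervals, for clusters with at least 20 cells on a day. The Ms4a7- and Apoe-led cluster runs from 3626 CPM at day 3 to 788 at day 14, and the Plac8- and Lyz2-led cluster from 652 at day 3 to 1234 at day 7.

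In neutrophil-like cells the members went both ways between day 3 and day 7. Of 31 measured members, 1 was at least 2-fold higher and 0 lower, where 3.89% of all genes were higher and 2.70% lower, with a median log2 ratio of -0.02. The 1 was Ifit3b, at 50.7 and 125 CPM (2.48-fold, 1.55 to 3.98). Short of 2-fold, Isg15 was 1.51-fold (1.25 to 1.83) and Rsad2 1.39-fold (1.17 to 1.66) higher at day 7. Oasl2 was at 0.577 of day 3 (0.441 to 0.749) and Trim30a at 0.627 (0.505 to 0.775). The inducible sum at day 7 was 1.16-fold that of day 3 (1.07 to 1.25). Without the top 5 cells of each day it was 1704 CPM at day 3 and 1432 at day 7. In dendritic-like cells, 2 of 36 members were at least 2-fold higher at day 7 and 0 lower, where 0.976% of all genes were higher and 0.759% lower. These were Ifit3, at 25.4 and 78.8 CPM (3.10-fold, 2.41 to 4.04), and Rsad2, at 16.1 and 44.3 CPM (2.74-fold). At day 14, on 45 cells, 0 members were higher and 13 lower, where 3.18% of all genes were higher and 3.92% lower, but 7 of the 13 reached the minimum through day 3 alone. Ifit1 gave 229 UMIs at day 3 and 0 at day 14, at least 9.86-fold lower, and Isg15 was at 0.335 of its day 3 level, Ifitm3 at 0.423 and Slfn5 at 0.289. The median log2 ratio of the 36 was -0.61 with members at 0 set to 3 UMIs. The inducible sum at day 14, 340 CPM, was 165 CPM without the top 5 cells. As in monocyte/macrophage-like cells, the summed members were lowest on day 14.

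In T cell-like cells, 6 of 29 measured members were at least 2-fold higher at day 7 than at day 3 and 0 lower, where 2.13% of all genes were higher and 1.38% lower. Ifit1 stood at 7.79 and 58.2 CPM (7.48-fold, 2.51 to 36.7) and Ifit3 was 5.21-fold, Rsad2 8.81-fold and Slfn5 2.39-fold higher. Ifit2 and Cmpk2 had 0 UMIs at day 3 and 32 and 26 at day 7. These 2 and Rsad2 reached the minimum through day 7 alone, and without them 3 of 26 were higher. The share of all genes on that basis is not given. At day 14, 0 of 17 measured members were higher and 0 lower, where 3.83% and 2.89% of all genes were. The inducible sum was 244, 424 and 155 CPM, 1.74-fold day 3 on day 7 (1.41 to 2.17) and 0.636 of it on day 14 (0.466 to 0.865). At day 7, 1 cell held 221 of the 983 inducible UMIs, and without the top 5 cells the levels were 167, 246 and 110 CPM. The day 7 ratio was 2.31 (1.63 to 3.39) in the Icos- and Trac-led cluster, on 21 cells at day 3, and 1.26 in the Cd8b1- and Cd8a-led cluster, with an interval that holds 1 (0.950 to 1.69). In NK cell-like cells, 1 of 20 members, Slfn5 (6.32-fold), which reached the minimum through day 7 alone, was higher at day 7 and 0 lower, where 3.37% and 2.34% of all genes were, and at day 14 0 of 5 differed in either direction, where 3.50% and 5.44% did.

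In smooth muscle-like cells, 2 of 22 measured members were at least 2-fold higher at day 7 than at day 3 and 0 lower, where 1.50% of all genes were higher and 0.518% lower. They were Isg20, at 2.13 and 15.2 CPM (7.11-fold, at the minimum through day 7 alone), and Ifi27l2a, at 14.2 and 54.2 CPM (3.81-fold). At day 14, 1 of 20, again Ifi27l2a (3.16-fold), was higher and 1, Ifit1, lower, from 21.7 to 2.32 CPM (ratio 0.107, at the minimum through day 3 alone), where 2.01% and 2.37% of all genes were. The members' median log2 ratio at day 7 was 0.21, but -0.29 with the interferon genes kept in the clustering and -0.26 at resolution 2. In endothelial-like cells, of which 40 and 57 were held, 8 of 18 measured members were at least 2-fold higher at day 7 and 1 lower, where 11.6% of all genes were higher and 5.75% lower. Higher were Oasl2, Irf7, Rtp4, Ifi35, Xaf1, Parp14, Phf11d and Slfn5 (8.06-fold) and lower was Ifi27l2a (0.23 of day 3). Of the 8 that were higher, 7 reached the minimum through day 7 alone, so that 1 of the other 10 members was higher and 1 lower. The shares of all genes on that basis are not given. Their inducible sum, 179 and 331 CPM, was 20.8 and 167 CPM without the top 5 cells.

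Inducible counts were also read cell by cell. Each cell was thinned to 1000 UMIs, shallower cells were left out, and a cell was counted as high at 3 or more inducible UMIs. In monocyte/macrophage-like cells of day 3, 96 of 460 cells were high, 20.9% (17.2 to 24.9, exact binomial), at day 7 112 of 818, 13.7% (11.4 to 16.2), and at day 14 10 of 147, 6.80% (3.31 to 12.2). These intervals, too, cover counting error only, over cells of 1 library, and do not compare the days. In neutrophil-like cells 48 of 222 were high at day 3, 21.6% (16.4 to 27.6), and 24 of 107 at day 7, 22.4% (14.9 to 31.5). Thinning left out 11, 15 and 23 monocyte/macrophage-like cells and 11 and 12 neutrophil-like cells. In fibroblast-like cells the share was 1.44% at day 0 (3 of 208), 16.4% at day 3 (18 of 110), 3.57% at day 7 (6 of 168) and 1.05% at day 14 (5 of 477). The share was highest at day 3 in monocyte/macrophage-like and fibroblast-like cells, as the summed levels were.

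Free RNA in droplets can add UMIs to any cell, and its part in these shares was not tested. Smooth muscle-like cells, the class with the lowest levels of most members, had 0 high cells among 88, 72 and 71 at day 3, day 7 and day 14, which allows shares of up to 3.41%, 4.17% and 4.23% when a count of 0 is set to 3 cells (exact 95% upper bounds 4.11%, 4.99% and 5.06%), at median depths of 23778.5, 15760.5 and 15158 UMIs before thinning. The high monocyte/macrophage-like cells at day 3 had a median of 7649 UMIs before thinning, and the others 8979. A cell that is high is a range of counts and not a type: at day 3, 39 monocyte/macrophage-like cells lay 1 UMI below the mark and 34 on it. Without thinning the shares were 63.5%, 56.8% and 37.6% in monocyte/macrophage-like cells, 40.3% and 36.1% in neutrophil-like cells, 12.4%, 13.5% and 4.05% in smooth muscle-like cells and 15.7%, 82.9%, 58.0% and 40.8% in fibroblast-like cells, whose median depth by day was 8415, 38871, 28367 and 18722.5 UMIs.

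High cells held 88.9% and 90.4% of the inducible UMIs of thinned neutrophil-like cells at day 3 and day 7, 71.7%, 70.5% and 49.0% of those of monocyte/macrophage-like cells, and 65.7% of those of fibroblast-like cells at day 3. At the same time 47.6% of monocyte/macrophage-like and 55.9% of neutrophil-like cells at day 3 had no inducible UMI at all after thinning. The highest thinned counts in neutrophil-like cells were 53 at day 3 and 64 at day 7. High cells are chosen by these same UMIs, so a large share in them follows in part from the choice and is given as a description.

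**Figure D5:**
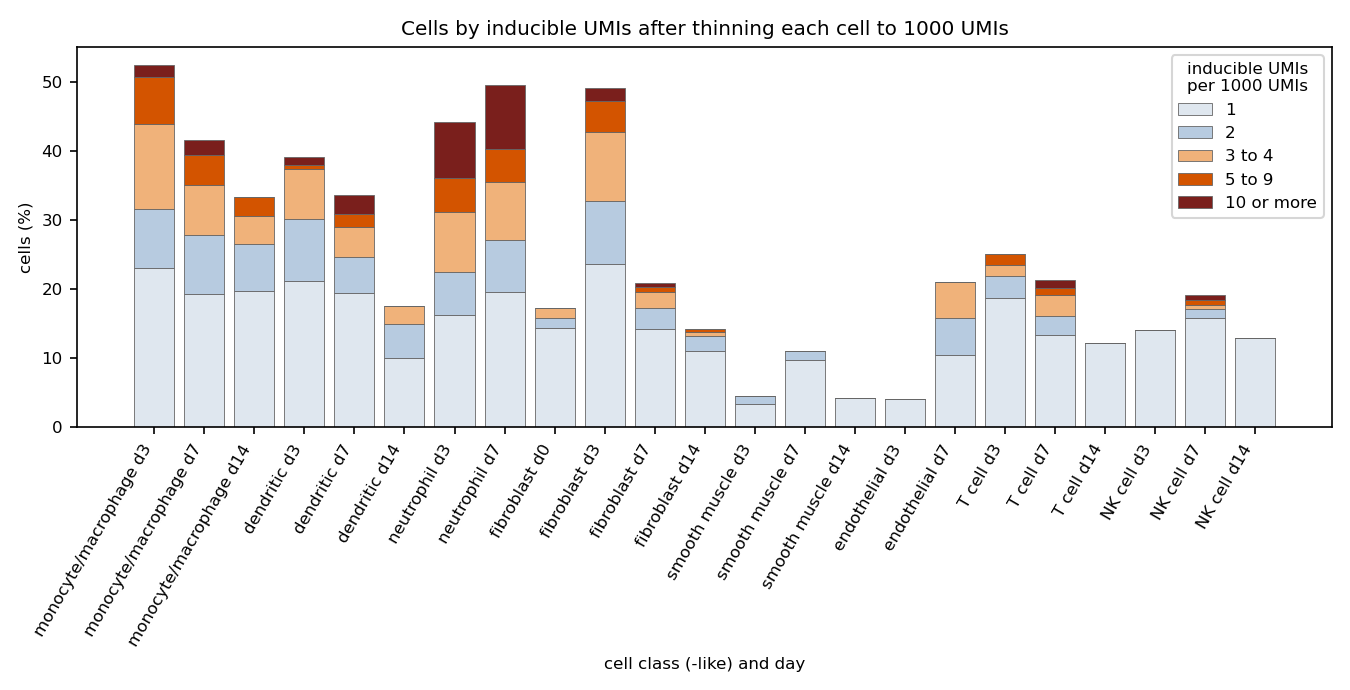
Distribution of inducible UMIs per cell after thinning each cell to 1000 UMIs, by class and day, as percent of cells (cells with 0 are not drawn, and make up the rest to 100%). In neutrophil-like cells of day 3, 55.9% of cells had 0 and 21.6% had 3 or more.

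Genes that took no part in the limit could be compared between high and other cells. With no minimum on counts, the 19 members outside the inducible 17 were higher in high cells for 19 in monocyte/macrophage-like cells at day 3, for 19 at day 7, for 17 in neutrophil-like cells on each of these days and for 19 in dendritic-like cells at day 7. Many of these rest on few UMIs. In neutrophil-like cells 9 of the 19 at day 3 and 4 at day 7 had at least 20 thinned UMIs, and 6 of the 9 and 2 of the 4, Slfn5 among them, had them through the high cells alone. The same held for 4 of 17 in monocyte/macrophage-like cells at day 3, 2 of 19 at day 7 and 5 of 14 in dendritic-like cells at day 7. Over all genes outside the inducible members with at least 1 thinned UMI, 42.3%, 39.0%, 33.6%, 32.9% and 32.8% were higher in high cells in these 5 comparisons, and over those with at least 20, 46.5%, 45.8%, 45.7%, 44.7% and 44.3%. Slfn5 stood at 927 CPM in high against 272 in other monocyte/macrophage-like cells at day 3 (3.41-fold) and 973 against 161 at day 7 (6.03-fold). Among genes with at least 20 thinned UMIs in monocyte/macrophage-like cells, the receptors had a median ratio of 1.19 at day 3, with 3 of 5 higher. The members outside the inducible 17 had 3.03 (17 of 17), targets of interferon gamma 3.52 (6 of 7) and nucleic acid sensing genes 1.72 (9 of 9). At day 7 these members had 4.23 (19 of 19) and the gamma targets 2.47 (12 of 12). Higher levels in high cells were thus not particular to the members. Cxcl10, a chemokine induced by both kinds of interferon, was 9.01-fold higher (4.90 to 17.3) in high cells at day 3.

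The ligands were almost unseen. Of the 19 type I and III interferon genes in the table, 18 had no UMI among the 60200043 UMIs of the cells kept, and Ifnb1 had 4 UMIs in 4 cells, 3 of them monocyte/macrophage-like and 1 dendritic-like. Ifng, the type II interferon made by lymphocytes, stood at 406, 237 and 436 CPM in NK cell-like and 363, 181 and 126 CPM in T cell-like cells at day 3, day 7 and day 14, and at most at 5.32 CPM in any other class. A brief or low ligand mRNA would not be detectable at this depth.

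The receptor genes had another order over days than the members. In fibroblast-like cells Ifnar1 stood at 29.8, 36.2, 40.4 and 33.1 CPM over the 4 days and Ifnar2 at 244, 116, 84.7 and 106 CPM, so that Ifnar2 was at 0.476 of day 0 when the members were highest. Of 5 receptor genes there, 0 were at least 2-fold higher at day 3 and 2 lower (3.83% and 4.23% of all genes were), Ifnar2 and Ifngr1 (165 and 62.3 CPM). In monocyte/macrophage-like cells Ifnar1 was level at 105, 99.3 and 104 CPM at day 3, day 7 and day 14 and Ifnar2 stood at 154, 235 and 241 CPM.

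Genes known mainly as targets of interferon gamma were set beside the members. In monocyte/macrophage-like cells 6 of 16 measured were at least 2-fold higher at day 7 than at day 3 (1.40% of all genes were), namely Cxcl9, Cxcl10, Gbp2, Gbp3, Gbp4 and Ciita, with a median log2 ratio of 0.41, where the members' median was -0.29. Of the 6, Cxcl9 reached the minimum through day 7 alone. Cxcl9, a T cell attractant, gave 1 UMI at day 3 (0.209 CPM), 1055 UMIs at day 7 (118 CPM) and 5 at day 14 (3.46 CPM), so that its ratio of day 7 to day 3, 565 (101 to 22322), rests on 1 UMI, and Cxcl10 stood at 99.7 and 350 CPM (3.52-fold). Irf1, the main transcription factor of that response, stood at 42.1, 117 and 141 CPM (2.78-fold and 3.34-fold day 3), and Socs3, an inhibitor of cytokine receptors, at 162, 401 and 524 CPM. Ikbke, a kinase upstream of Irf7, was highest at day 3, at 63.9, 14.6 and 4.85 CPM. At day 14, 1 of 14 gamma targets was higher and 2 lower (2.39% and 2.60% of all genes were), with a median of -0.29. In fibroblast-like cells 6 of 13 were higher at day 3 (3.83% of all genes were), with a median of 0.98, and Cxcl10 was at least 26.7-fold higher, having had 0 UMIs at day 0. Of the 13, 5 reached the minimum through day 3 alone, 2 of them among the 6. Many of these genes answer to both kinds of interferon, so the lists are not separate pathways.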

How the data were processed

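Single-cell 3′ RNA libraries were made from mouse carotid arteries, 1 library per time point. The authors counted UMIs per gene and barcode with Cell Ranger and deposited the filtered counts, which are raw. The version was 3.0.2 per the file headers, whereas the study names an earlier one. The genome build named in the study is not one of the mouse, so coordinates were taken from RefSeq alone. The kit was a v2 kit per the labels.

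From the deposited counts, barcodes with under 200 genes or over 20% mitochondrial UMIs (453) were removed, as were repeats of barcodes with at least 8 times more UMIs in another library. The doublet tool's own limit marked only 15 barcodes, so 0.8% per 1000 barcodes were marked in each library by score (106). Counts were scaled to 10000, and 2000 variable genes (254 interferon-related genes left out), 30 principal components, 15 neighbours and resolution 1 were used in scanpy 1.11.5 with leidenalg 0.10.2, igraph 0.11.9 and anndata 0.12.19. Doublets, sums and intervals used scikit-learn 1.9.0, scipy 1.17.1, numpy 2.4.6 and pandas 2.3.3. Classes were named by marker lists, with thresholds set after the data were seen. A cluster needed at least 3 of its markers.

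UMIs were summed per class and day and given as CPM. With 1 library per day there was no test. A gene was measured with at least 20 UMIs in the 2 sums together, and at least 2-fold was read on log2(CPM + 10), which understates the change of low genes. A sum at 0 was set to 3 UMIs for a bound. The 36 members and the other lists were chosen with earlier results of these data known. Every member could be named, beyond up to 10 with the largest fold in each direction of a comparison, and other genes came only from the pathway and marker lists and from the 2 leading genes of a cluster. The ratios, their intervals and the fold calls were tested on simulated Poisson counts drawn from the fibroblast-like sum of day 0. These draws held no spread between cells. Filters, clusters, class names and the motif search were not simulated. Alternatives were another pseudocount, no minimum, the mean of each cell's CPM, other scalings, clustering settings and doublet handling, other limits for high cells, and, added after the data were seen, the repeated barcodes kept, 2 clusters left out and members left out that reached the minimum through 1 sum alone. One gene of the pathway list is not reported here.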

Additional observations from a re-analysis of the deposited data

Results flagged for a closer look

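The summed inducible members at day 7 over day 3 lay on opposite sides of 1 in different classes. The ratio was 0.777 in monocyte/macrophage-like cells, and 1.74 in T cell-like and 1.86 in NK cell-like cells. With 1 library per day, these differences between classes were not tested.

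Within the monocyte/macrophage-like class the same ratio was 1.89 in the Plac8- and Lyz2-led cluster and 0.274 in the Ms4a7- and Apoe-led cluster, and this difference was not tested either. The second value rests on 33 cells at day 3.

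A signal was also seen in cells outside the comparisons. An unnamed cluster of 44 cells led by Slfn4 and Irf7, left out of all classes, had 2607 CPM of inducible members, and its 30 cells of day 7 had 3274 CPM. One of its leading genes is a member. The 18 endothelial-like cells of day 14, too few to compare, had 2424 CPM of inducible members, against 179 and 331 CPM at day 3 and day 7. These were 116 UMIs in a few cells, since the median and the upper quartile of the cells held 0, and 1 of 7 thinned cells was high.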

How the results depend on the processing

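No paired analysis was possible because each day is 1 library. The directions of the members' medians in monocyte/macrophage-like and fibroblast-like cells held in every alternative run, with ranges of -0.32 to -0.06 (day 7) and -0.84 to -0.61 (day 14 against day 3), and 0.65 to 1.44 (day 3), 0.27 to 0.87 (day 7) and 0.11 to 0.30 (day 14 against day 0). The cause of the differences below was not tested.

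In monocyte/macrophage-like cells, without the Ms4a7- and Apoe-led cluster the median at day 7 was -0.063 (-0.29 as reported). The fibroblast-like median at day 3 (1.01) was 1.36 when each cell's CPM was averaged, 0.65 at resolution 2 and 1.44 with 1 CPM added, and 9 members in place of 19 were at least 2-fold higher at resolution 2. At day 7 (6 members, median 0.41), 11 were with the mean CPM, 13 with doublet scores not used (median 0.87), 10 with interferon genes kept in the clustering, 10 at resolution 2, 10 with 1 CPM added and 3 without the Saa3- and Prg4-led cluster. At day 14 (2 members), 4 were with each library clustered on its own, 5 with interferon genes kept and 8 with 1 CPM added. The shares of all genes in these alternatives are not given.

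With interferon genes kept, the dendritic-like median at day 7 was -0.20 (0.08) and the inducible ratio 0.70 in place of 1.10. The smooth muscle-like median at day 7 (0.21) was -0.29 with interferon genes kept and -0.26 at resolution 2, and at day 14 (-0.41) it was 0.34 with each library on its own and -1.08 at resolution 2, while the inducible ratio was 1.02 in place of 0.386 on its own clustering.

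All members in monocyte/macrophage-like over fibroblast-like cells at day 3 (1.57) were 1.41 with the mean CPM, 1.50 without Ifitm3, Bst2 and Ifi27l2a, 1.77 clustered alone, 1.50 with doublet scores not used, 1.76 with interferon genes kept, 2.01 at resolution 2 and 1.60 with repeated barcodes kept. At day 7 (1.80) they were 2.13, 2.26, 1.50 (doublet scores), 1.57 (interferon genes), 1.59 (resolution 2) and 1.84 (repeats), and at day 14 (1.97) 1.79 (mean CPM), 1.88 (without the 3 genes), 1.71 (alone) and 1.70 (interferon genes). The inducible ratio of neutrophil-like over monocyte/macrophage-like cells at day 3 (1.71) was 1.84 with the mean CPM, 1.61 alone and 1.55 with interferon genes kept, and at day 7 (2.55) 2.79 and 2.08.

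Without thinning, the share of high cells at day 7 over day 3 in monocyte/macrophage-like cells was 0.894 (0.656), and that of neutrophil-like over monocyte/macrophage-like cells at day 3 was 0.636 (1.04), or 1.54 at a limit of 5 UMIs. The limit of 5 gave no ratio in fibroblast-like cells. The gamma targets' medians were 0.69 with the mean CPM and 0.74 with 1 CPM added in monocyte/macrophage-like cells at day 7 (0.41), -0.68 at day 14 with 1 CPM added (-0.29), and 1.57 and 1.90 in fibroblast-like cells at day 3 (0.98). Depth limits the lowest members: at day 0 a count of 0 in fibroblast-like cells allows 1.35 CPM.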
